A study of Drosophila melanogaster with 2 samples.

Results

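Binding of the transcription factor Adf1 was examined at 8 genes of the ecdysone and juvenile hormone response in Drosophila melanogaster embryos: EcR, usp, Eip75B, br, ftz-f1, Hr39, Kr-h1 and Cyp18a1. The genes were chosen by the presence and signal of Adf1 peaks at them, with earlier results of these data known, and each was taken with 10 kb to either side. They are 8 of the 13968 protein-coding genes of the annotation, and their windows held 66 of the 4370 summits of the main peak list. A summit is the position of the highest signal within a called peak. Because of that choice, all counts and signals at them are given as a description, without tests.

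The data came from whole embryos collected from 0 to 24 h, of the strain labelled Adf1-GFP, whose flies carry a transgene that makes Adf1 fused to enhanced green fluorescent protein (eGFP). Chromatin was sonicated to fragments of 200 to 800 bp. It was precipitated with an antibody against green fluorescent protein according to the sample descriptions, although the antibody field names Adf1, and the bound DNA was sequenced (ChIP-seq). The series holds 1 group with 2 biological replicates, both of the same strain and age. It has no second condition, so no groups could be compared, and a control experiment that the labels name was not analysed here. The labels do not give the promoter of the transgene, the sex of the embryos or whether the untagged Adf1 gene was still active. A collection of whole embryos over this time mixes all embryonic stages and tissues, so a summit cannot be assigned to a cell type or to the time of a hormone pulse. Only peak lists were used, which hold no read counts, and the depth of each replicate is therefore unknown.

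Ecdysone is the steroid hormone that drives moulting and metamorphosis in insects, and a pulse of it also occurs in the middle of embryogenesis. Its active form binds a receptor made of EcR and usp, which switches on a small set of early genes, mostly transcription factors and nuclear receptors, and these in turn control later genes. Juvenile hormone acts through the paired bHLH-PAS proteins Met and gce, and its best known direct target is the zinc finger gene Kr-h1, which holds back metamorphosis. Adf1 binds DNA through a MADF domain and was first described at the promoter of the alcohol dehydrogenase gene, and its sites are known as runs of GC-rich triplets.

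The sequences at the strongest of the summits are printed first, since they carry the feature that recurs among them. The feature searched for was a run of 3 triplets in tandem, 9 letters long, in which each triplet was GCC, GCT or GTC, read on either strand. The following windows extend 50 bp to either side of the summit and show the plus strand of Release 6 of the genome (dm6), taken from the RefSeq assembly, with the runs in capitals. They are the 7 windows with a run among the 9 summits with a signal above 1000 at these genes.
ftz-f1 summit at chr3L:18759401-18759501: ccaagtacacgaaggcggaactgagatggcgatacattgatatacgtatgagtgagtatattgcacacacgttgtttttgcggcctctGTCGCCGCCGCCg
ftz-f1 summit at chr3L:18765768-18765868: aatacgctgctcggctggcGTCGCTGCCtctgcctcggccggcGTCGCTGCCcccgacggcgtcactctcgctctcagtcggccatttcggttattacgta
ftz-f1 summit at chr3L:18771606-18771706: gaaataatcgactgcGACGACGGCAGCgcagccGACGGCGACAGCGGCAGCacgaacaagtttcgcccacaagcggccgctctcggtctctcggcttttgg
ftz-f1 summit at chr3L:18781922-18782022: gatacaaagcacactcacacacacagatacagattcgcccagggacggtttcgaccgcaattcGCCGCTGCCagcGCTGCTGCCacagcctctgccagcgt
Kr-h1 summit at chr2L:6082453-6082553: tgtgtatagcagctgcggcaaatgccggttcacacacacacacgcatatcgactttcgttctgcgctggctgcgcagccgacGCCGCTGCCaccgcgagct
Kr-h1 summit at chr2L:6089265-6089365: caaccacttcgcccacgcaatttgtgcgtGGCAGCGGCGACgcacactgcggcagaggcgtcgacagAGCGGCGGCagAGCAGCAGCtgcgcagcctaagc
Eip75B summit at chr3L:17972441-17972541: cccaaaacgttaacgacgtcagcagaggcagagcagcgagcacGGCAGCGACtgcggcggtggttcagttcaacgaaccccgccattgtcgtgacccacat
The window at ftz-f1 from chr3L:18765768-18765868 holds the run GTCGCTGCC in 2 copies, and those at chr3L:18771606-18771706 and at Kr-h1 from chr2L:6089265-6089365 have 30 bases each in runs. In the window around the strongest ftz-f1 summit the run stands near the right-hand edge, with its nearest centre 42 bp from the summit.

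Weaker summits at the other genes carried the same kind of run. They are shown for br, where the summit lies beside a transcription start site (TSS), for Hr39, where it is the single summit of the locus in the main list, and for usp, where it lies outside the gene. The usp window is 87 bp long because 14 bases that overlap a UTR of the neighbouring gene were left out.
br summit at chrX:1608722-1608822: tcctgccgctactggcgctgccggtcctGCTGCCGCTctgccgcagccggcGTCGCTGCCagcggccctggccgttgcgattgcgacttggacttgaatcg
Hr39 summit at chr2L:21250883-21250983: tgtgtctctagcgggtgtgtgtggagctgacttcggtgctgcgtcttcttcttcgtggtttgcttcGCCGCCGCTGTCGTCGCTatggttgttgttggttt
usp summit at chrX:2036494-2036580: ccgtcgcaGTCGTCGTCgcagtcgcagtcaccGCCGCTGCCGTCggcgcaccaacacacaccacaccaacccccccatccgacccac
The Hr39 run is 18 bases long without a break. The run GTCGCTGCC stands in the br window as it does in the ftz-f1 window.

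Some summits had no run at all within 50 bp, among them one of the strongest of Eip75B and the single summit of Cyp18a1, which are shown for contrast.
Eip75B summit at chr3L:18029733-18029833: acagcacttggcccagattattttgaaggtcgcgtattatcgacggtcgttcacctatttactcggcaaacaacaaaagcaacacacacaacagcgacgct
Cyp18a1 summit at chrX:18693102-18693202: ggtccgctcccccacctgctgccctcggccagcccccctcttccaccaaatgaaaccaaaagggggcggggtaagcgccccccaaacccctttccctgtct
Neither window holds any letter in capitals. No match says only that these letters are not in the window.

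In all, 25 of the 66 summits (37.9%) had at least 1 triplet run within 50 bp. Over all 4370 summits of the list the share was 18.9%. In windows of the same width, 101 bp, centred 500 bp to either side of the 66 summits, 6 of 132 (4.55%) had a run, and around all summits 396 of 8740 (4.53%) did. The nearest run had its centre a median of 12 bp from the summit. GC content was higher at the 66 summits, with a mean of 52.3% against 46.0% over all summits, and its part in the difference in runs was not tested.

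The share with a run was higher among the strong summits in both sets. Of the 9 summits at these genes with a signal above 1000, 7 (77.8%) had a run, against 18 of the other 57 (31.6%). Over the whole list the shares were 111 of 201 (55.2%) above that signal and 716 of 4169 (17.2%) at or below it. By gene, a run was present at 6 of 15 summits of ftz-f1, 6 of 12 of br, 4 of 7 of Kr-h1, 4 of 19 of Eip75B, 2 of 4 of usp and 2 of 7 of EcR. The single Hr39 summit had one and the single Cyp18a1 summit had none.

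**Figure D1:**
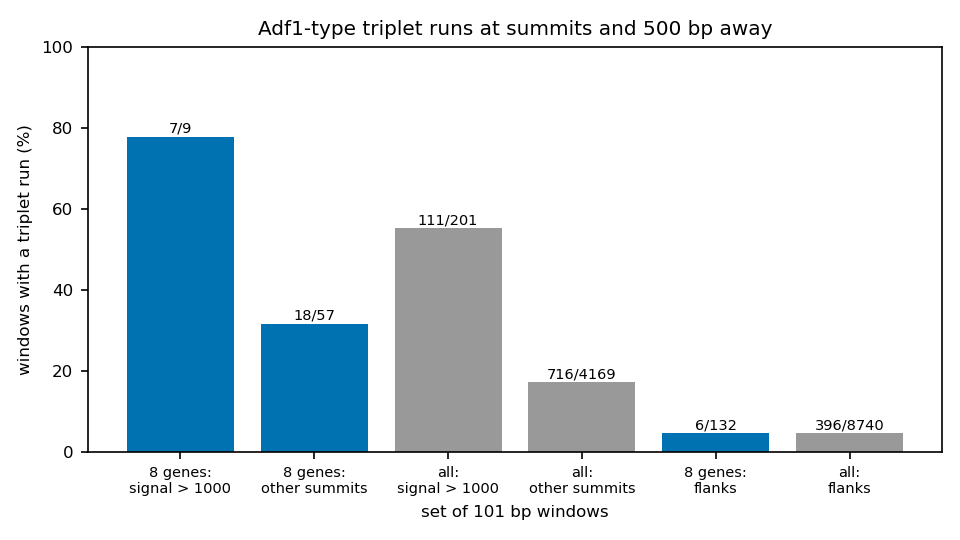
Share of 101 bp windows (vertical axis, percent) with at least 1 run of 3 tandem triplets GCC, GCT or GTC, for summits at the 8 genes (blue) and all summits of the main list (grey), split at a signal of 1000, and for windows centred 500 bp away. The bars for summits above 1000 reach 77.8% and 55.2%, while both flank bars stay near 4.5%.

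Of the 27 possible runs, 22 occurred at the 66 summits. The most frequent was GTCGCTGCC, found at 7 of the 25 summits with a run, in 4 of the genes, and at 188 of the 827 such summits of the whole list (22.7%). GCCGCTGCC was found at 6 of the 25, in 4 of the genes, and at 123 of the 827 (14.9%). The CAG-type repeat GCTGCTGCT was present at 2 of the 25 and at 163 of the 827 (19.7%). The counts at these genes are small, and their differences from the whole list were not tested.

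Letters known for other factors were searched on both strands in the same windows. The half-site of nuclear receptors, AGGTCA, was present at 3 of the 66 summits (4.55%) and at 1.53% of all summits, but also at 4.55% of the flanking windows of these genes. The longer FTZ-F1 type site CAAGGTCA and the core of the inverted repeat bound by EcR and usp were at 0 of the 66, and at 7 and 0 of the 4370. The E-box core CACGCG, of the type bound by Met and gce, was at 2 of 66 (3.03%) and at 3.75% of all summits. GAGAG, the letters of GAGA factor sites, was at 13 of 66 (19.7%) and 21% of all, and CACACA was at 15 of 66 (22.7%) and 14.1% of all. The Zelda letters CAGGTA and the DRE letters TATCGATA were at 0 of the 66, and at 84 and 68 of the 4370. A match of letters is a description of the window and does not show which factor was bound.

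The main list, which the authors called across both replicates and name conservative, ranks summits by a signal value whose scale is not stated; here it describes and orders summits within 1 list. All 8 genes had at least 1 summit of this list in the gene or within 10 kb, as did 56.9% of all protein-coding genes. A summit within 500 bp of a TSS was present at 6 of the 8 genes, namely ftz-f1, EcR, Eip75B, br, Kr-h1 and Cyp18a1, and at 18.9% of all genes. Such counts follow gene size: of the 6 genes of at least 10 kb, 5 had a TSS summit, against 39.5% of all genes of that length. At least 2 TSSs with a summit were found in 4 of the 7 genes that have 2 or more TSSs, against 18.7% of all such genes. In EcR and Cyp18a1 the same summit counted for 2 neighbouring TSSs, while ftz-f1 and Eip75B had separate summits. Since the genes were chosen with these summits in view, nothing is read from these differences.

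The windows, which together cover 539.741 kb, held 1.22 summits per 10 kb, against 0.318 over the genome. The median signal of the 66 summits was 217, against 151 for the list, and 46 of them (69.7%) lay above the median of the list. Signals above 1000 were reached by 9 of the 66 (13.6%) and by 201 of all 4370 (4.60%). These 9 belonged to ftz-f1, Kr-h1 and Eip75B, and 7 of them were among the 100 strongest summits of the genome.

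Most of the 66 summits were not near a TSS of the hormone genes. By the exons of the hormone gene alone, introns held 46 (69.7%), 5' UTRs held 4, and coding sequence and 3' UTRs held 0. A further 7 lay upstream and 9 downstream of the gene. Exons of nested or neighbouring genes were not considered. A TSS of the gene was within 500 bp of 13 summits (19.7%) and within 100 bp of 7, and 47 (71.2%) lay more than 2 kb from any TSS of the gene. These places were not counted for all summits of the list, so they are not read as a trait of these genes. For 12 summits (18.2%) the nearest coding TSS was that of another gene, namely Actn, moody, Mur2B, CG14589, Atg3, CG3740, stai or l(2)k14505. Of these, 6 lay in introns of the hormone gene, and the assignment of the other 6, which lay outside it, rests on the window alone. A further 3, in introns of Kr-h1, were equally near to a TSS of Kr-h1 and of CG45075. Starts of non-coding RNAs stood within 500 bp of 4 summits. They were lncRNA:CR45938 at 13 bp from the ftz-f1 summit with a signal of 281, lncRNA:CR45939 at 176 bp from that of ftz-f1 with 181, lncRNA:CR45393 at 226 bp from that of Eip75B with 154, and lncRNA:CR43904 at 384 bp from that of EcR with 123.

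**Figure D2:**
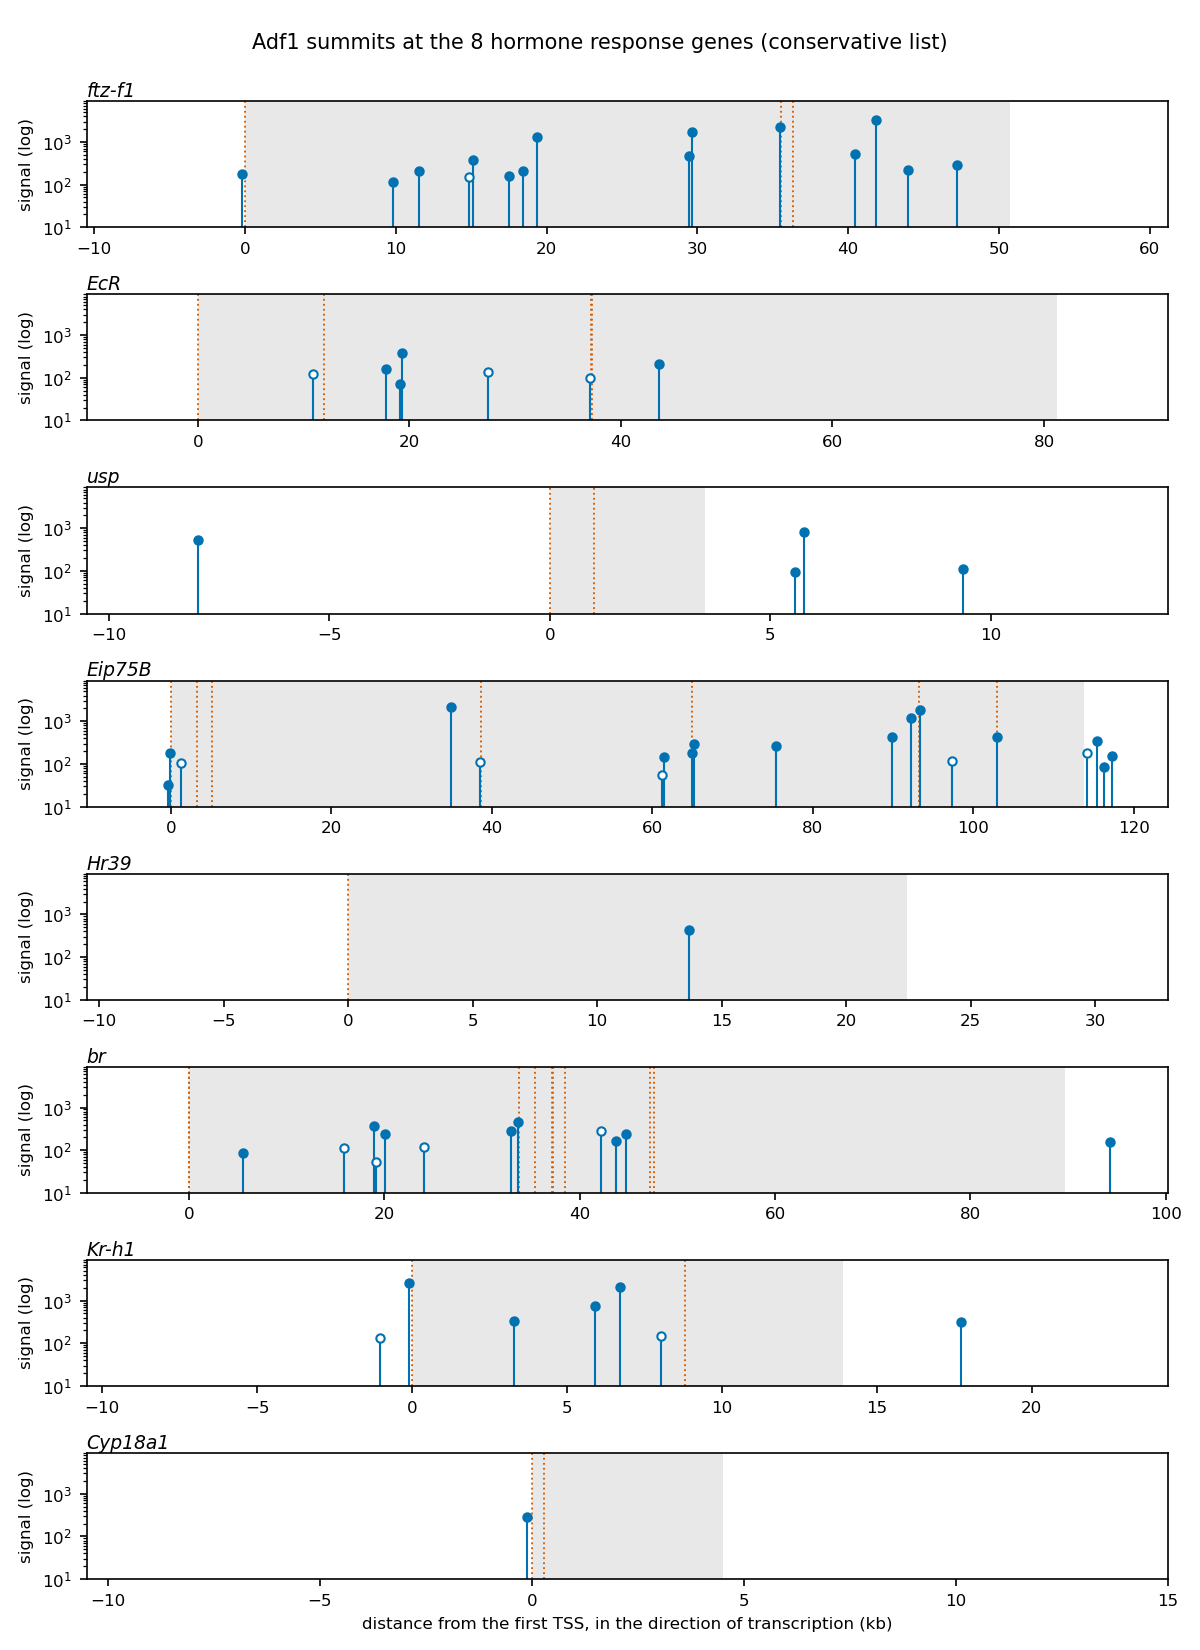
Summits of the main list at each of the 8 genes, with the distance from the first TSS in the direction of transcription in kb on the horizontal axis and the signal on a logarithmic vertical axis. Grey marks the gene and dotted lines its TSSs. Filled points are summits with a match within 250 bp in both replicates' own lists, and open points those without a match in at least 1 of them. ftz-f1, Kr-h1 and Eip75B have the 9 summits above 1000, spread over introns and starts, while Hr39 and Cyp18a1 have 1 summit each.

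Each replicate also has a list of its own that passed the same threshold, with 3126 summits for replicate 1 and 6003 for replicate 2. Matched within 250 bp, 51 of the 66 summits (77.3%) were in both, 53 (80.3%) in that of replicate 1 and 64 (97.0%) in that of replicate 2, and none was in neither. For all 4370 summits these shares were 65.8%, 69.1% and 91.8%. A summit of a replicate could match more than 1 summit of the main list, as at close pairs in usp, EcR and Eip75B. The 51 thus rest on 49 distinct pairs of replicate summits, and matching within 100 bp left 45 in both. Every one of the 66 was in both ranked lists, which also hold peaks below the threshold and have 27254 and 61519 summits. Because the main list was called across both replicates, this says little about these genes. The share over all summits was not counted. Matched summits lay a median of 20 bp apart between the replicates, at most 246 bp, and 43 of 51 were within 50 bp. All 9 summits above 1000 were in both lists, and the strongest that was not in both had a signal of 280.

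The order of the summits was similar in the 2 lists, with a Spearman rank correlation of 0.856 over 49 distinct matched pairs. These pairs share their loci and were selected as peaks in both replicates, so the value is a description. The own list of replicate 1 held 51 summits in the windows and that of replicate 2 held 88. Of the latter, 18 had no summit of the main list within 250 bp, the strongest with a signal of 125, while 2 of replicate 1 had none.

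**Figure D3:**
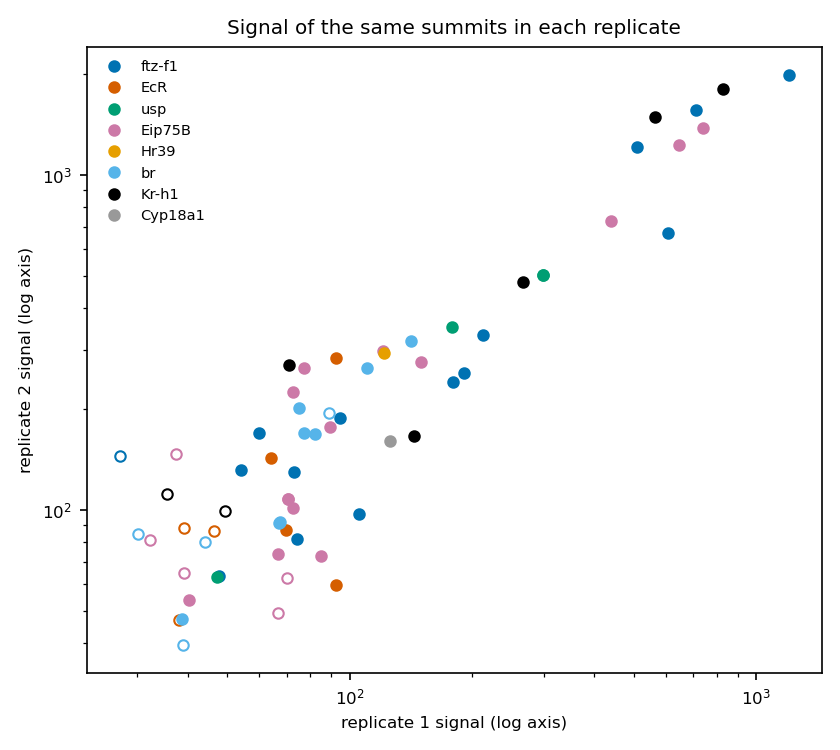
Signal of the replicate summit matched within 250 bp to each of the 66 summits, in replicate 1 (horizontal) and replicate 2 (vertical). Both axes are logarithmic, and colours show the gene. A summit close to a stronger one can show the value of that neighbour, as for usp at 2036743. Filled points have a match in both replicates' own thresholded lists. Open points take their values from the ranked lists and lie mostly at the low end. The strongest point, of ftz-f1, reads 1201 and 1978.

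EcR, FBgn0000546, encodes the nuclear receptor that binds ecdysone. It lies on 2R from 6087873 to 6169087 on the minus strand and is 81.2 kb long, and 7 summits lay in it, all in introns. Their signals ranged from 69.9 to 379, with a median of 138, below the highest values of ftz-f1, Kr-h1 and Eip75B. The strongest, at 6149805, had a signal of 379, with 92.4 in replicate 1 and 284 in replicate 2, and was 7324 bp downstream of the start of EcR-RD and EcR-RE. All lists that held it placed it at the same base.

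The 4 TSSs of EcR differed. The starts of EcR-RB, EcR-RC and EcR-RG lie within 500 bp of the summit at 6131992, which is 70 bp upstream of the first of these, has a signal of 99.2 and ranks 3487 of 4370. The own list of replicate 2 had its nearest summit at 6131867, on the other side of that start, with a signal of 66.3. The own list of replicate 1 had none within 250 bp. The nearest summits in the ranked lists had 38.0 in replicate 1 and 46.9 in replicate 2. The start of EcR-RD and EcR-RE was 1084 bp from the nearest summit of the main list, while the authors' longer optimal list, with 5607 summits, placed one with a signal of 69.7 at 47 bp. The first start, of EcR-RA, was 10874 bp from any summit and had 23.0 and 25.4 in the ranked lists of the replicates. EcR is thus counted with a TSS summit on a weak value that 1 replicate did not place above the threshold.

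usp, FBgn0003964, encodes the partner of EcR and is the fly homologue of the vertebrate RXR receptors. It lies on X from 2038798 to 2042311 on the minus strand and, at 3.51 kb, is the shortest of the 8. Of its 4 summits none was in the gene, 1 was upstream and 3 downstream. The strongest, at 2036544, had a signal of 793, with 298 in replicate 1 and 502 in replicate 2, and lay 75 bp from a TSS of Actn, which encodes alpha-actinin. The one at 2050292 had 527, with 178 and 350 in the replicates, and lay 172 bp from a TSS of moody, a G protein-coupled receptor gene of the blood-brain barrier. At the start of usp-RA itself only the optimal list had a summit, of 81.1 at 145 bp, with 35.8 and 44.5 in the ranked lists. All 4 summits of the usp window were closer to a TSS of another gene than to one of usp.

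Eip75B, FBgn0000568, is an early ecdysone-induced gene that encodes several isoforms of a heme-binding nuclear receptor from separate promoters. It lies on 3L from 17950953 to 18064696 on the minus strand, spans 113.744 kb and had 19 summits, a number that 3 of the 13968 genes (0.0215%), Eip75B included, reached in windows drawn the same way. The signals of the 19 ranged from 31.5 to 2107, with a median of 178, and 14 of them had a match within 250 bp in both replicates' own lists. The weakest, of 31.5, counted there only through the replicate summits that its stronger neighbour also matched. A count of summits grows with the length of the window, and the Eip75B window held 1.42 per 10 kb. In all, 5 of the 7 TSSs of Eip75B had a summit within 500 bp.

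The strongest of these TSS summits was at Eip75B-RA. It lay at 17971378, in the 5' UTR and 61 bp downstream of the TSS, with a signal of 1878 and values of 646 and 1226 in the replicates. A further summit of 1165, with 438 and 727, stood 1052 bp upstream of the same TSS. Eip75B-RD had a summit of 428, with 121 and 298, at 43 bp. Eip75B-RC had a pair of summits, with signals of 290 and 178, at 281 and 75 bp. Eip75B-RF also had a pair, with 178 at 158 bp and 31.5 at 364 bp. The one at Eip75B-RG had 112 and was in the own list of replicate 2 alone, at 81.2. The starts of Eip75B-RE and Eip75B-RB had none, with the nearest summit 1930 and 3785 bp away. The alternative promoters of this gene thus spanned the range from no summit to rank 53 of the genome.

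The highest signal of Eip75B was not at a TSS. The summit at 18029783, whose window without a run is printed above, had a signal of 2107 at rank 40, with 741 and 1379 in the replicates, at ranks 40 and 36 of their own lists. It lies in an intron, 3751 bp upstream of the start of Eip75B-RG. Its ranks in both replicates were close to those at Eip75B-RA, which were 60 and 57.

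br, FBgn0283451, the Broad-Complex, is an early gene for a family of BTB zinc finger factors that specify pupal development. It lies on X from 1575132 to 1664869, is 89.7 kb long and has 9 TSSs. Its 12 summits were of moderate signal, from 51.7 to 455 with a median of 199, and 24 genes (0.172%), br included, had at least as many. Over its long window this made 1.09 summits per 10 kb. The strongest, at 1608772, had a signal of 455, with 142 and 320 in the replicates, and lay 97 bp upstream of the start of br-RH. That was the single TSS of the 9 with a summit. The start shared by br-RA, br-RB and 6 other transcripts was 3569 bp from the nearest one, and the starts of br-RN and br-RO at the 5' end of the gene 5494 and 5477 bp. In the 5' part of the gene, summits of 366 and 238 lay 14803 and 13676 bp upstream of br-RH in introns. The summit beyond the 3' end, with 152, lay 99 bp from a TSS of CG3740.

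ftz-f1, FBgn0001078, encodes an orphan nuclear receptor. Its maternal form acts with the segmentation protein Ftz in early embryos, and a later form makes tissues competent to respond to ecdysone. It lies on 3L from 18750607 to 18801309 on the minus strand, is 50.7 kb long and had 15 summits in 13 peak intervals; 9 genes (0.0644%), ftz-f1 included, had at least as many. Their signals ranged from 112 to 3195 with a median of 281, and 14 of the 15 were in both replicates' own lists. The ftz-f1 window held 2.12 summits per 10 kb.

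The strongest summit of all 8 genes, at 18759451, had a signal of 3195 and ranked 7 of 4370. It had 1201 in replicate 1, at rank 11, and 1978 in replicate 2, at rank 8. It lies in an intron, 5505 bp downstream of the start of ftz-f1-RA. The next, at 18765818, had a signal of 2266 at rank 31, with 712 and 1563, and lay 74 bp upstream of the start of ftz-f1-RC and ftz-f1-RD. Intronic summits of 1749, with 508 and 1207, and of 1277, with 607 and 670, lay 5912 and 16228 bp upstream of that start. The 4 strongest summits of the gene all carried triplet runs.

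The starts of ftz-f1 differed as well. The distal start, of ftz-f1-RB, had a summit of 181 at 179 bp, with 54.1 and 132 in the replicates. The start of ftz-f1-RA had none within 500 bp, the nearest being 862 bp away. Between RB and RC the remaining summits had signals from 112 to 477.

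Hr39, FBgn0261239, encodes the other fly receptor of the FTZ-F1 family. It lies on 2L from 21237250 to 21259675 and is 22.4 kb long. Its single summit in the main list, at 21250933, had a signal of 423 at rank 671, with 121 and 294 in the replicates. It lies in an intron, 13683 bp downstream of the only TSS. At that TSS the ranked lists gave 32.5 and 43.7, and no thresholded list had a summit. The paralogous pair ftz-f1 and Hr39 had 15 summits and 1 in the main list, in windows of 70.7 and 42.4 kb. Hr39 had 3 in the optimal list, 2 in the list of replicate 1 and 3 in that of replicate 2, against 16, 14 and 18 for ftz-f1.

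Kr-h1, FBgn0266450, encodes a zinc finger repressor that transduces the juvenile hormone signal. It lies on 2L from 6082603 to 6096498, is 13.9 kb long and had 7 summits. Their signals ranged from 133 to 2623 with a median of 341. The strongest, at 6082503, had a signal of 2623 at rank 16, with 831 in replicate 1, at rank 27, and 1803 in replicate 2, at rank 13. It lies 100 bp upstream of the start of Kr-h1-RA, at the same base in every list. This is the strongest summit near a TSS among the 8 genes.

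The other strong summit of Kr-h1, at 6089315, had a signal of 2036 at rank 43, with 565 and 1492. It lies in an intron, 2097 bp upstream of the start of Kr-h1-RB, and CG45075 has a TSS at the same distance. Another intronic summit had 758, with 268 and 480. The start of Kr-h1-RB had none within 500 bp, and the nearest, 782 bp away, had a signal of 147 and was absent from the own list of replicate 1. The summit of 313 beyond the 3' end lay 48 bp from a TSS of stai, which encodes stathmin.

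Cyp18a1, FBgn0010383, encodes a cytochrome P450 that inactivates ecdysone. It lies on X from 18688538 to 18693042 on the minus strand and is 4.50 kb long. Its single summit, at 18693152, had a signal of 288 at rank 1025, with 126 and 160 in the replicates. It lies 110 bp upstream of the start of Cyp18a1-RB and 408 bp upstream of that of Cyp18a1-RA, so both TSSs count as having a summit. All thresholded lists held it. It is also the single summit in the window of the neighbouring gene phtm, which encodes a P450 of ecdysone synthesis; no summit stood within 500 bp of the phtm TSS.

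**Figure D4:**
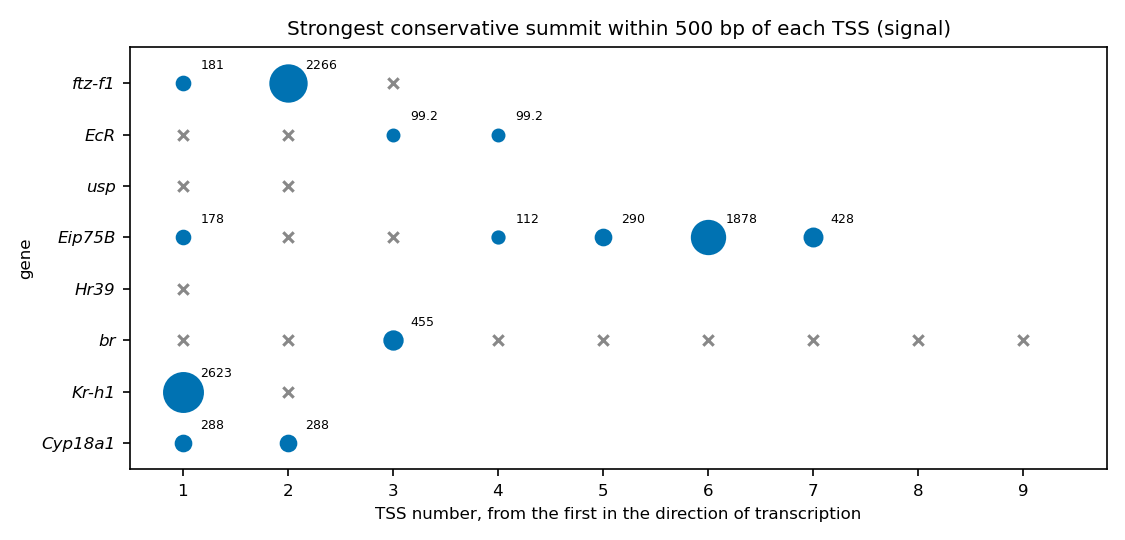
Strongest summit of the main list within 500 bp of each TSS of the 8 genes, numbered from the first TSS in the direction of transcription (horizontal axis). The area of a point follows its signal, which is printed beside it, and a cross marks a TSS with none. Summits stand at 13 of the 30 TSSs, from 99.2 at EcR to 2623 at Kr-h1. A summit near neighbouring TSSs, as in EcR and Cyp18a1, is shown at each of them.

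Summed over the genes, a summit stood within 500 bp of 13 of the 30 TSSs (43.3%), against 3507 of 19630 TSSs of all genes (17.9%). A summit near neighbouring TSSs counted for each of them, as in EcR and Cyp18a1. The first TSS in the direction of transcription had one in 4 of 8 genes, and 9 of the 22 later TSSs (40.9%) did. Of the 17 TSSs without one, 6 (35.3%) had a summit in both ranked lists, against 30.2% of all such TSSs. The number of genes with a TSS summit depended little on the list. It was 7 of 8 in the optimal list, with usp added, against 23.2% of all genes. It was 5 of 8 in the list of replicate 1, where EcR dropped out, against 14.3%, and 6 of 8 in that of replicate 2, against 23.2%.

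Of the 66 summits, 8 (12.1%) lay less than 300 bp from a stronger one, and in the whole list 476 of 4370 (10.9%) did. The distance was a median of 206 bp, from 199 to 267, and over the whole list a median of 203 bp, from 199 to 298. In 5 of the 8 pairs both summits were in the same interval. No triplet run was found at any of the 8 weaker summits, while 5 of the 8 stronger ones had one. In the whole list, 50 of the 476 weaker summits (10.5%) had a run. Without the weaker summits of such pairs, 25 of 58 (43.1%) of the summits at the 8 genes had a run. Neither this share nor that of the stronger summits was worked out for the whole list, so no comparison with it is made.

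At the edge of the windows, the farthest summit included was the one at moody, 7981 bp outside usp with a signal of 527. The nearest left out were 11157 bp from EcR with 109, 12967 bp from ftz-f1 with 127, 14345 bp from br with 280 and 14973 bp from Cyp18a1 with 85.9. Kr-h1 had one of 623 at 16512 bp.

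A wider list of 73 other genes of the 2 hormone pathways, also written with earlier results known, was examined in the same way. A summit within 500 bp of a TSS was present at 24 of them (32.9%), against the 18.9% of all genes. It was present at 9 of 16 other nuclear receptor genes, 2 of 7 receptor cofactors, 7 of 20 ecdysone-induced genes, 1 of 16 genes of ecdysteroid synthesis, transport and release, and 5 of 14 genes of juvenile hormone synthesis, breakdown and response. In the replicates' own lists, 17 and 28 of the 73 had one, against 14.3% and 23.2% of all genes. Such counts follow gene size, as 39.5% of all genes of at least 10 kb had a TSS summit in the main list. The length and the number of TSSs of the 73 genes were not taken into account, so nothing is read from these differences.

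Among the nuclear receptors, the strongest TSS summits were at Eip78C, with 2432 at 66 bp, and Hr3, with 2163 at 57 bp. Hr38 had 1759 at 100 bp, Hr4 1688 at 141 bp and Hr96 246 at 123 bp. Eip78C, Hr3 and Hr4 are ecdysone-responsive receptors, Hr38 can pair with usp, and Hr96 is known for its role in lipid metabolism. Of the 16, 7 had a TSS summit in the list of replicate 1 and 10 in that of replicate 2, against 14.3% and 23.2% of all genes. The cofactors with one were the corepressor gene Smr, with 618 at 66 bp, and the coactivator gene tai, with 132 at 192 bp.

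Of the ecdysone-induced genes, Eip74EF, an Ets factor and classical early gene, had the highest TSS summit, with 1122 at 150 bp. Eip63E, a cyclin-dependent kinase gene, had 958 at 66 bp and crol, a zinc finger gene, 500 at 6 bp. Eip63F-1 had 277 at 452 bp and ImpE1 211 at 97 bp. The 5 glue genes of the list, Sgs3, Sgs4, Sgs5, Sgs7 and Sgs8, had none near a TSS, and neither had other genes of this group. With 18.9% of all genes having one, the absence at 5 genes is not read as a trait of them.

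In the ecdysteroid group, the single gene was Oatp74D, which encodes the importer that carries ecdysone into cells. Its TSS summit had a signal of 1916 at rank 49 and lay 12 bp from the TSS, with 602 and 1332 in the replicates. No gene of a biosynthetic enzyme in the ecdysteroid group had a TSS summit. Among juvenile hormone genes, gce had 766 at 80 bp, while Met, its paralogue, had none. The others were weaker, among them Jheh1 with 144, Hmgs with 124 and Jheh3 with 94.8. In the list of replicate 1 gce alone remained of the 14, where 14.3% of all genes had a TSS summit. In that of replicate 2 there were 6 of the 14, against 23.2% of all genes.

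**Figure D5:**
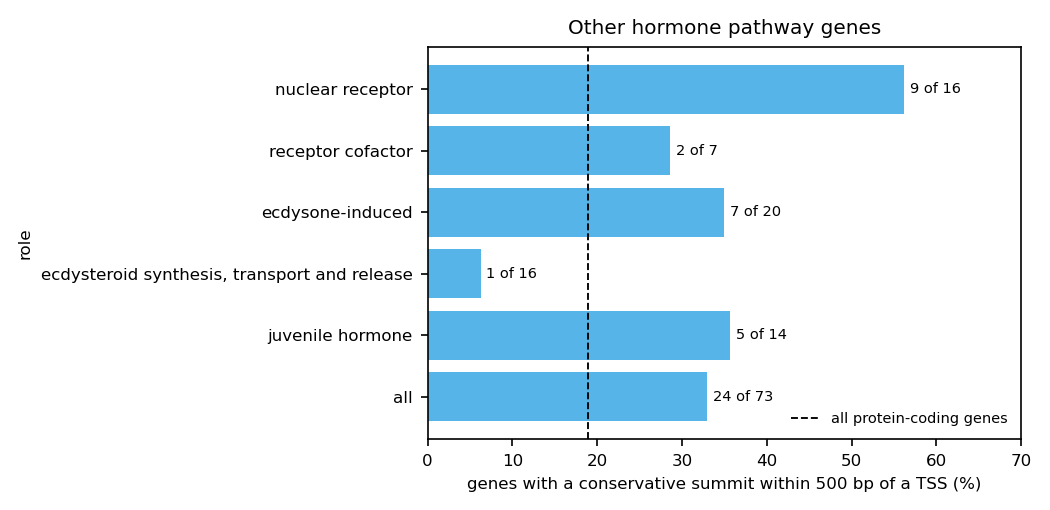
Share of genes with a summit of the main list within 500 bp of a TSS (horizontal axis, percent) for 5 roles of the wider list of 73 hormone pathway genes and for all of them, with counts beside the bars; the dashed line is the share of all protein-coding genes, 18.9%. Nuclear receptors reach 56.2% and the ecdysteroid synthesis, transport and release group 6.25%. The dashed line takes no account of gene length or number of TSSs.

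The genes whose TSS summit came closest to that of ftz-f1 in rank were Pdss2, apt and CG46321. Likeness was the sum of the absolute rank differences over the 2 replicates' own lists, in which the TSS summit of ftz-f1 ranked 46 and 30. Pdss2 ranked 39 and 38, with a sum of 15, apt 43 and 44, with a sum of 17, and CG46321 63 and 31, with a sum of 18. The CG46321 summit is the same one as at Hr3.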

How the data were processed

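Adf1-eGFP binding was measured by ChIP-seq in 2 biological replicates of whole embryos. Per the labels, the build is dm6; which aligner and peak caller were used is not given in the sources used here. The peak signal is the authors' own value, of unstated scale. The deposited score is the authors' scaled irreproducible discovery rate (IDR), from 830 to 1000 in the thresholded lists; the deposited -log10 values of the ranked lists put the lower end at a global IDR of 0.01 in both replicates. Summits are the authors' offsets from the peak start, given 1-based. Only peaks on 7 chromosome arms were kept. No read counts were used, so no depth or interval is given.

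Genes and TSSs came from the Ensembl annotation of BDGP6.54, with TSSs counted per gene, and 13966 of 13968 genes had identical coordinates in the RefSeq annotation of Release 6. Members and lists were chosen with earlier results of these data known. In the wider list, 4 older symbols were matched to Cth, MsrA, phtm and RNaseZ through RefSeq names. The older symbol phm is a RefSeq synonym of several genes, and taking it as phtm was a choice. Named were the 8 genes, up to 5 genes per role with the highest TSS signal, the 3 genes most like ftz-f1, and genes whose TSS is nearest to a summit; the glue genes, Met and phtm were added after their values were seen. A gene that this rule names is not reported here. Summits of different lists were matched within 250 bp. Alternatives were other lists, distances, windows and the stronger 50% of the list. The counting methods were tested on simulated data. Python 3.11.15, SciPy 1.17.1 and Matplotlib 3.10.9 were used.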

Additional observations from a re-analysis of the deposited data

How the results depend on the processing

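The 66 summits in the windows became 83 with the optimal list, 46 with the stronger 50% of the main list by signal, 50 in the genes alone, and 64 and 72 with 5 and 20 kb to either side; with 1 replicate left out they ranged from 51 to 88. Genes with a TSS summit numbered from 5 to 7 of 8 under all alternatives run, and from 5 to 6 with a replicate left out. Genes with any summit in the window stayed at 8, except in the genes alone, where they were 6, since usp and Cyp18a1 have none inside. The 24 genes of the wider list with a TSS summit became 15 with the stronger 50% of the list, which holds fewer summits by construction, and ranged from 17 to 28 with a replicate left out and from 20 to 26 under the others. Summits in both replicates were 51, and 45 to 66 under other matching rules. Summits with a triplet run were 25, and 19 to 30 with other windows. In the optimal list 26 of 83 (31.3%) had one, against 37.9% of the 66 in the main list. The share over all summits was not worked out for these settings. Of 56 counts per gene, 43 stayed within 1.5 times. With replicate 2 left out, EcR had 3 summits against 7, and juvenile hormone genes with a TSS summit numbered 1 against 5. With replicate 1 left out, Kr-h1 had 12 against 7. Hr39 had 1 summit, but 3 with the optimal list or with replicate 1 left out and 2 with replicate 2 left out. No paired analysis was possible because the series has 1 group.

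Depth is unknown, and an unlisted position is one that did not pass the authors' threshold.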
